A study of Homo sapiens with 12 samples.

Results

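The coactivators YAP and TAZ, encoded by YAP1 and WWTR1, and 8 of their target genes were followed through serum deprivation in human fibroblasts with and without LEO1. The 10 genes were given as a list by symbol (YAP1, WWTR1, CCN1, CCN2, ANKRD1, AMOTL2, AJUBA, LATS2, CRIM1 and AXL), and all 10 were found among the 60671 genes of the count table. All 10 also passed the filter of more than 1 CPM (a count scaled to the library total) in at least 3 libraries, as did 13236 genes in all. ANKRD1 passed it only through the ΔLEO1 cells in 10% serum, the group where it was highest, so its passing the filter is no result. The other 9 genes were above 1 CPM in all 12 libraries.

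The cells were BJ-5ta, a fibroblast line immortalized with telomerase (hTERT), carried in RPMI medium with fetal bovine serum. The 4 groups were wild-type cells in 10% serum, wild-type cells after 10 days in 0.1% serum, ΔLEO1 cells in 10% serum and ΔLEO1 cells after 10 days in 0.1% serum, with 3 poly(A) RNA libraries each. The ΔLEO1 cells came from a single clone made with CRISPR/Cas9 and guides to exons 1 and 2 of LEO1, a subunit of the PAF1 complex that travels with RNA polymerase II, so clone and genotype cannot be told apart. The question put to these data is how serum and LEO1 change gene expression in quiescent fibroblasts. The labels do not say whether the 3 libraries of a group were separate cultures, and all p-values measure only the spread between these libraries.

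In the Hippo pathway, the kinases STK3 and STK4 with the scaffold SAV1 activate LATS1 and LATS2, which work with MOB1A and MOB1B and phosphorylate YAP and TAZ. Phosphorylated YAP and TAZ are held in the cytoplasm or degraded. Unphosphorylated YAP and TAZ enter the nucleus, where they act through the DNA-binding TEAD proteins. In fibroblasts this output is known to respond to serum lipids, cell density, cell shape and matrix stiffness. mRNA levels of YAP1 and WWTR1 say nothing of phosphorylation or location, which were not measured here. In bulk RNA, fewer cells expressing a gene and less of its RNA per cell cannot be told apart.

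Promoter sequences are shown for the genes whose 250 bases before the transcription start hold the core letters of the TEAD motif, GGAATG, on either strand. RefSeq windows on GRCh38.p14 were found for 8 of the 10 genes, with 12 windows in all. CCN1 and CRIM1 had no entry. The motif was in 6 of these 12 windows, those of 6 genes, while 11.9% of all 35116 windows of this length held it and 0.94% held 2 or more copies. CCN2 had 3 copies, starting 169, 104 and 95 bases before the start, and ANKRD1 had 2 copies at 220 and 128 bases. YAP1, AMOTL2, AJUBA and AXL had 1 copy each, at 162, 69, 59 and 212 bases, and WWTR1 and LATS2 had none in their windows. For AMOTL2, AJUBA and AXL the copy lay before a start inside the annotated gene. The other window of each of these genes, at the annotated gene start, had no copy. The start used for ANKRD1 also lay inside the annotated gene. Its proximal copy was within that annotated gene and its distal copy before it. A match of 6 letters is a description of the sequence and does not show binding. The CCN2 window is given whole because it holds the most copies, and the other copies are given with 12 bases on each side. All are written along the gene's strand with the motif, or its reverse complement CATTCC, in capitals.
CCN2 (chr6:131951373-131951622, minus strand): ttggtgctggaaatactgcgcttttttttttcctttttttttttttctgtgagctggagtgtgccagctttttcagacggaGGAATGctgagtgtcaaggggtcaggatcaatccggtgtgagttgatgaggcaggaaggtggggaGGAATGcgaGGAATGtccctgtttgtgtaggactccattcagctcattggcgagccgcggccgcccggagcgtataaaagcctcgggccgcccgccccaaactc
ANKRD1 distal copy (chr10:90921290-90921319, minus strand): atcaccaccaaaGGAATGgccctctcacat
ANKRD1 proximal copy (chr10:90921198-90921227, minus strand): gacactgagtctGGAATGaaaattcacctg
YAP1 (chr11:102110273-102110302, plus strand): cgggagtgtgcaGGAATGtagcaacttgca
AMOTL2 (chr3:134374499-134374528, minus strand): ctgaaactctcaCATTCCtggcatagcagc
AJUBA (chr14:22976884-22976913, minus strand): gggaagttggctGGAATGaagccaaagcaa
AXL (chr19:41226531-41226560, plus strand): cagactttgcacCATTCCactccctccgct

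The libraries held 26240632 to 45315560 gene counts, and 0.625% to 3.24% of all counts were on the ERCC transcripts, synthetic RNAs added to each sample. Counts are given on 2 scales. ERCC-scaled counts are counts divided by the library's effective ERCC size, on the scale of CPM, and follow the amount of a transcript against the added RNA. CPM after TMM normalization on the genes gives the level relative to the other genes. The choice matters here, because on the ERCC scale the median of all tested genes was 0.97 lower in log2 in 0.1% than in 10% serum in wild-type cells and 1.05 lower in ΔLEO1 cells, and it was 0.35 and 0.27 higher in ΔLEO1 than in wild-type cells in 10% and 0.1% serum. With TMM on the genes these medians were between 0.00 and 0.02. LEO1 itself was counted 682 to 1001 times in the wild-type libraries and 23 to 55 times in the ΔLEO1 libraries, with no overlap. The libraries were from fibroblasts by their markers, since all 10 fibroblast markers were abundant (68560 to 101100 CPM in sum) and the 6 epithelial markers summed to at most 1.69 CPM. In each group the highest-numbered library (3, 6, 9 or 12) stood apart, with a chi-square per gene of 66.8 to 145 against its fellows and of 3.04 to 12.2 between the others, and library 12 held far more gene counts per ERCC count (90.5) than libraries 10 (52.2) and 11 (29.8) of its group. All log2 fold changes, standard errors (SE) and adjusted p below come from edgeR's likelihood ratio test over all 12 libraries, with Benjamini-Hochberg adjustment over the 13236 genes, and genes with an adjusted p under 0.05 are called higher or lower.

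In low serum YAP1 (ENSG00000137693, chr11:102110461-102233423, plus strand) was not called on either scale with all 12 libraries and no covariate, while WWTR1 (ENSG00000018408, chr3:149517235-149736714, minus strand) rose against the other genes in both genotypes, although on the ERCC scale it was not called and turned sign in ΔLEO1 cells. Relative to the other genes, YAP1 was at 267, 271 and 261 CPM in wild-type cells in 10% serum, at 309, 260 and 243 in 0.1% serum, at 219, 223 and 229 in ΔLEO1 cells in 10% serum and at 241, 212 and 261 in 0.1% serum. The serum groups overlapped in each genotype on this scale. WWTR1 was at 122, 122 and 94.2 CPM in wild-type cells in 10% serum and at 297, 282 and 211 in 0.1% serum, and in ΔLEO1 cells at 113, 110 and 124 and at 221, 228 and 206. Every library in 0.1% serum was above every library in 10% serum.

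On this scale the log2 fold change of WWTR1 with low serum was 1.22 (SE 0.15, adjusted p = 2.23e-13) in wild-type cells and 0.92 (SE 0.15, adjusted p = 8.34e-08) in ΔLEO1 cells, against 0.02 (SE 0.13, adjusted p = 0.914) and 0.09 (SE 0.13, adjusted p = 0.627) for YAP1. On the ERCC scale neither gene was called. WWTR1 was there at 0.24 (SE 0.45, adjusted p = 0.618) in wild-type cells and, with the sign turned, at -0.16 (SE 0.45, adjusted p = 0.739) in ΔLEO1 cells. YAP1 was there at -0.95 (SE 0.44, adjusted p = 0.0715) and -0.91 (SE 0.44, adjusted p = 0.0703), close to the median of all genes. Its ERCC-scaled counts did not overlap between the sera in wild-type cells (17530 to 32850 in 10% and 9243 to 16290 in 0.1%). In ΔLEO1 cells they overlapped (23290 to 33780 and 6451 to 25160). YAP1 would be called lower on the ERCC scale in wild-type cells without library 3 (adjusted p = 0.0327), 11 (0.0222) or 12 (0.0178), and in ΔLEO1 cells without library 12. It was also called lower in wild-type cells with the 6 libraries compared alone (-0.97, adjusted p = 0.0165) and in both genotypes without libraries 3, 6, 9 and 12 (-0.96 and -1.66, adjusted p of 0.0157 and 1.57e-05). A further fit had a covariate for libraries 3 and 6 and another for 9 and 12. Its serum changes are those at the level of the other libraries. YAP1 was there at -1.19 (adjusted p = 0.0166) in wild-type and -1.34 (adjusted p = 0.0154) in ΔLEO1 cells.

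The ratio of WWTR1 to YAP1 counts within a library does not depend on either scale. It was 0.458, 0.450 and 0.360 in wild-type cells in 10% serum and 0.962, 1.08 and 0.871 in 0.1% serum. In ΔLEO1 cells the 10% serum libraries had 0.517, 0.493 and 0.539 and the 0.1% serum libraries 0.915, 1.07 and 0.789. In both genotypes the ratio in low serum lay above that in 10% serum in all libraries. The ratio was chosen after the values were seen and was not tested. Antisense genes overlap 9.97% and 9.45% of the exon bases of YAP1 and WWTR1, and had at most 1 and 20 counts in a library, against at least 7006 and 3564 for the coactivators.

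**Figure D1:**
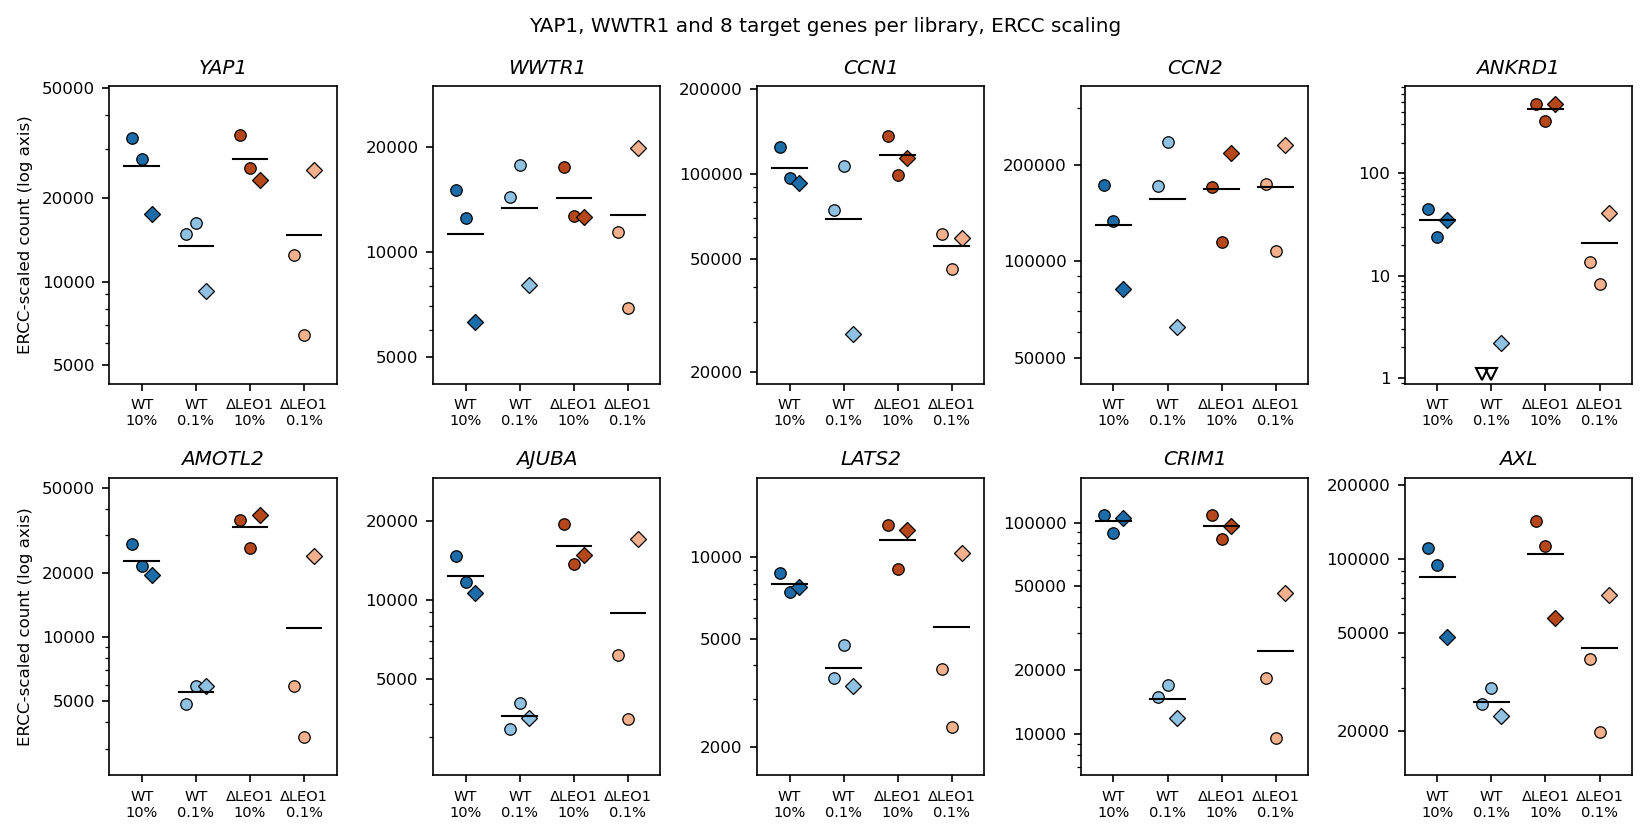
ERCC-scaled counts (log axis) of the 10 genes in each library by group, 3 libraries a group, with the group mean as a line and the highest-numbered library of each group as a diamond. Open triangles at the foot of the ANKRD1 panel are libraries with 0 counts, and no mean is drawn for that group. AMOTL2, AJUBA and CRIM1 show low wild-type values in 0.1% serum with no overlap, while the ΔLEO1 values in 0.1% serum spread widely, with library 12 at the top in 9 of the 10 panels, CCN1 being the exception.

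CCN1 and CCN2, which encode the secreted matricellular proteins CYR61 and CTGF, were the most abundant of the 10 genes per length. CCN2 rose relative to the other genes in low serum in both genotypes and was not called on the ERCC scale, and CCN1 had opposite signs on the 2 scales. CCN2 (ENSG00000118523, chr6:131948176-131951373, minus strand) had 1403, 1310 and 1218 CPM in wild-type cells in 10% serum and 3545, 3740 and 1636 in 0.1% serum. In ΔLEO1 cells it had 1103, 998 and 2145 CPM in 10% serum and 3368, 3528 and 2390 in 0.1% serum. All low-serum libraries were above the 10% serum libraries of their genotype, although the highest-numbered library of each genotype came close. The log2 fold change of CCN2 relative to the other genes was 1.18 (SE 0.33, adjusted p = 0.00247) in wild-type and 1.13 (SE 0.33, adjusted p = 0.00449) in ΔLEO1 cells. In ΔLEO1 cells the call was lost without library 4 (0.98, adjusted p = 0.0505), and both calls were lost with the 2 lowest-numbered libraries of a group taken as 1 (adjusted p of 0.109 and 0.250). On the ERCC scale the changes were 0.27 (SE 0.44, adjusted p = 0.574) and 0.02 (SE 0.44, adjusted p = 0.964), and neither was called.

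CCN1 (ENSG00000142871, chr1:85580761-85583962, plus strand) had 1014, 946 and 1383 CPM in wild-type cells in 10% serum and 1551, 1704 and 720 in 0.1% serum, and in ΔLEO1 cells 881, 863 and 1116 and then 1198, 1518 and 618. The serum groups overlapped, with libraries 9 and 12 the lowest of all 12. Its log2 fold change relative to the other genes was 0.25 (SE 0.34, adjusted p = 0.614) in wild-type and 0.22 (SE 0.34, adjusted p = 0.673) in ΔLEO1 cells. Its sign was the opposite on the ERCC scale, at -0.59 (SE 0.44, adjusted p = 0.230) in wild-type cells and at -1.06 (SE 0.44, adjusted p = 0.0406) in ΔLEO1 cells, where it was called lower. That call was lost without any of libraries 2, 4, 5, 6, 7, 10 and 11 (adjusted p of 0.0547 to 0.154), and with the highest-numbered library as a covariate (-0.83, adjusted p = 0.110). The CCN2 to CCN1 count ratio within a library was 1.38, 1.38 and 0.881 in wild-type cells in 10% serum and 2.29, 2.195 and 2.27 in 0.1% serum. In ΔLEO1 cells it was 1.25, 1.16 and 1.92 and rose to 2.81, 2.32 and 3.87, again with no overlap between the serum levels. This ratio too was chosen after the values were seen and was not tested.

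**Figure D2:**
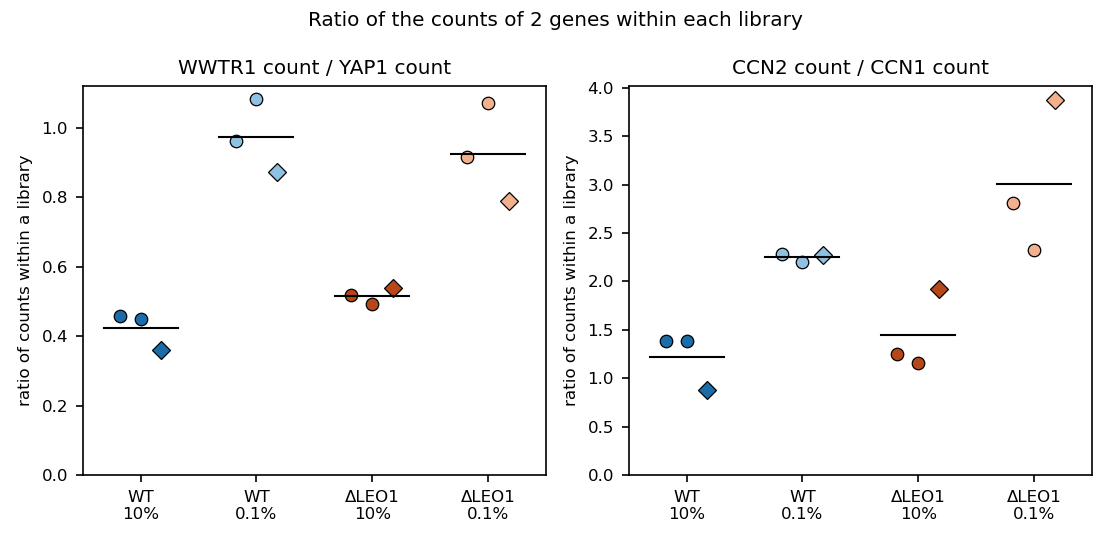
Ratio of WWTR1 to YAP1 counts (left) and of CCN2 to CCN1 counts (right) within each library, by group, with the mean of 3 libraries as a line and the highest-numbered library as a diamond. Both ratios are higher in 0.1% than in 10% serum in every library of both genotypes, and the WWTR1 to YAP1 ratio rises from 0.423 to 0.973 in wild-type cells and from 0.517 to 0.925 in ΔLEO1 cells on average.

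ANKRD1 (ENSG00000148677, chr10:90912096-90921276, minus strand), which encodes an ankyrin repeat protein of the nucleus and the sarcomere, was the rarest of the 10 genes and had the largest differences. It was counted 13, 9 and 20 times in wild-type cells in 10% serum, 0, 0 and 2 times in wild-type cells in 0.1% serum, 116, 127 and 200 times in ΔLEO1 cells in 10% serum and 9, 9 and 16 times in ΔLEO1 cells in 0.1% serum. As CPM relative to the other genes, these were 0.236 to 0.528, at most 0.0584, 2.84 to 4.67 and 0.265 to 0.426. The libraries did not overlap between any of the groups set against each other below.

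ANKRD1 entered the tests only through the ΔLEO1 libraries in 10% serum, so its p-values after the filter are conditional on that group being high. Without any filter its adjusted p on the ERCC scale was 1.93e-07 between the genotypes in 10% serum, 2.68e-04 in 0.1% serum, and 2.32e-06 and 1.01e-09 for low serum in wild-type and ΔLEO1 cells. In 10% serum ANKRD1 was 3.61 higher in log2 in ΔLEO1 than in wild-type cells on the ERCC scale (SE 0.56, adjusted p = 6.14e-08) and 3.21 higher relative to the other genes (SE 0.37, adjusted p = 2.17e-17). In ΔLEO1 cells it fell by 4.44 (SE 0.57, adjusted p = 2.57e-10) on the ERCC scale and dropped by 3.43 (SE 0.38, adjusted p = 4.79e-18) relative to the other genes when serum was low, and without library 12 the former was -5.29. Wild-type cells in 0.1% serum had 3 counts or fewer in each library, so their folds are bounds against 3 counts per library. ANKRD1 was at least 7.25-fold lower there than in wild-type cells in 10% serum on the ERCC scale and at least 3.98-fold lower relative to the other genes (adjusted p of 8.77e-07 and 8.57e-07). It was at least 4.38-fold higher in ΔLEO1 than in wild-type cells in 0.1% serum on the ERCC scale and at least 3.39-fold higher relative to the other genes (adjusted p of 1.32e-04 and 5.93e-06). With any of libraries 4, 5 or 6 left out, ANKRD1 no longer passed the filter and was not tested. Leukocyte markers also differed between the genotypes. The sum over 6 markers was 1.19 to 2.08 CPM in wild-type and 3.29 to 9.05 CPM in ΔLEO1 libraries. Most of the difference was PTPRC. Its mean was 0.304 and 0.426 CPM in wild-type and 4.51 and 6.46 CPM in ΔLEO1 cells in 10% and 0.1% serum. CD3E and ITGAM had at most 1 count in a library. The 6 endothelial markers summed to 2.09 to 5.43 CPM in wild-type and 0.394 to 0.659 CPM in ΔLEO1 libraries, and nearly all of this difference was TEK, with 57 to 160 counts in wild-type and 0 to 5 in ΔLEO1 libraries, while CDH5, KDR and CLDN5 had at most 2 counts in any library. Their part in the ANKRD1 result was not tested.

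AMOTL2, AJUBA and LATS2 act back on the pathway that controls them. AMOTL2 (ENSG00000114019, chr3:134355874-134375479, minus strand) belongs to the angiomotins, which bind YAP and keep it out of the nucleus. AJUBA (ENSG00000129474, chr14:22971174-22982642, minus strand) is a LIM protein that binds and inhibits LATS kinases, and LATS2 (ENSG00000150457, chr13:20973032-21061547, minus strand) is the kinase itself. All 3 genes had lower ERCC-scaled counts in the wild type in 0.1% than in 10% serum, without overlap of the libraries, and the fall was called for AMOTL2 and AJUBA.

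AMOTL2 reached 27470, 21510 and 19530 ERCC-scaled counts in the wild type in 10% serum and 4853, 5890 and 5935 in 0.1% serum. In ΔLEO1 cells they were 35500, 26190 and 37330 in 10% serum and 5896, 3394 and 23950 in 0.1% serum. The last and highest of these low-serum values is library 12. AMOTL2 changed by a log2 value of -2.04 (SE 0.44, adjusted p = 2.57e-04) in wild-type cells and -1.58 (SE 0.44, adjusted p = 0.00681) in ΔLEO1 cells. Without library 12 the latter was -2.83 (adjusted p = 1.81e-08), and the call was lost without library 10 (-1.28, adjusted p = 0.104) or 11 (-1.15, adjusted p = 0.0611). AMOTL2 fell by 1.05 relative to the other genes (SE 0.32, adjusted p = 0.00649) in wild-type cells, a call lost without library 7 (adjusted p = 0.0522) or 8 (0.0620). With the 2 lowest-numbered libraries of a group taken as 1 it was lost too (adjusted p = 0.111), as was the ERCC-scaled call in ΔLEO1 cells (0.381). In ΔLEO1 cells it fell by 0.80 (SE 0.32, adjusted p = 0.0487) on that scale, with overlapping libraries, and the call was lost without any of libraries 1, 2, 4, 5, 6, 7, 8, 10 and 11. Of the 58-base stretches of AMOTL2, 2.08% also occur in transcripts of other genes.

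AJUBA had the largest interaction value of genotype and serum among the 10 genes on both scales, and it was not called. Its ERCC-scaled counts were 14700, 11780 and 10680 in wild-type cells in 10% serum and 3216, 4028 and 3553 in 0.1% serum. In ΔLEO1 cells they were 19640, 13750 and 14830 in 10% serum and 6194, 3513 and 17090 in 0.1% serum, where library 12 overlapped with the group in 10% serum. The fall in wild-type cells was 1.78 in log2 (SE 0.45, adjusted p = 0.00167), while ΔLEO1 cells had a value of -0.85 (SE 0.45, adjusted p = 0.0906), which was -1.48 (adjusted p = 0.00851) with the highest-numbered library as a covariate. With TMM on the genes AJUBA fell by 0.81 (SE 0.21, adjusted p = 7.39e-04) in wild-type cells and had a value of 0.07 (SE 0.21, adjusted p = 0.825) in ΔLEO1 cells. With the 2 lowest-numbered libraries of a group taken as 1, the wild-type call was lost on both scales (adjusted p of 0.0794 and 0.0542).

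In CPM relative to the other genes, AJUBA in 0.1% serum was at 66.7, 64.3 and 93.3 in wild-type and at 120, 116 and 177 in ΔLEO1 cells, with no overlap. This difference was 0.88 in log2 (SE 0.21, adjusted p = 1.92e-04), and it was called. With ERCC scaling it was 1.31 (SE 0.45, adjusted p = 0.0526) with overlapping libraries, and ranged from 0.43 without library 12 to 1.69 without library 11, when it was called (adjusted p = 7.02e-04), as it was without library 3 (adjusted p = 0.0439) or 10 (0.0470). The interaction of genotype and serum, which tests the difference between the serum responses, was 0.89 (SE 0.29, adjusted p = 0.0601) relative to the other genes and was not called. It passed the threshold without library 9 (adjusted p = 0.00500) or 11 (adjusted p = 0.0362).

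LATS2 had values close to the median of all genes on both scales. Its ERCC-scaled counts were 8764, 7444 and 7792 in wild-type cells in 10% serum and 3582, 4768 and 3346 in 0.1% serum, and in ΔLEO1 cells 13160, 9091 and 12580 and then 3859, 2358 and 10350. The log2 change on this scale was -1.04 (SE 0.45, adjusted p = 0.0558) in wild-type and -1.07 (SE 0.45, adjusted p = 0.0425) in ΔLEO1 cells, near the medians of all genes. The call in ΔLEO1 cells was lost without any of libraries 2, 4, 5, 6, 7, 10 and 11 (adjusted p of 0.0583 to 0.190), and without library 12 the change was -1.90 (adjusted p = 4.80e-05). In wild-type cells it would be called without library 11 (adjusted p = 0.0148) or 12 (0.00989), with the 6 libraries compared alone (0.01), without libraries 3, 6, 9 and 12 (0.0141) or with the highest-numbered library as a covariate (-1.21, adjusted p = 0.0166). LATS2 relative to the other genes was at -0.13 (SE 0.23, adjusted p = 0.709) and -0.15 (SE 0.23, adjusted p = 0.675).

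CRIM1 and AXL are cell surface proteins. CRIM1 (ENSG00000150938, chr2:36355926-36551135, plus strand), a membrane protein with cysteine-rich repeats that binds bone morphogenetic proteins, had the largest fall with serum after ANKRD1. Its ERCC-scaled counts were 108900, 89760 and 105500 in wild-type cells in 10% serum and 14950, 16980 and 11950 in 0.1% serum. In ΔLEO1 cells they were 109100, 84110 and 96760 and then 18470, 9600 and 46420. The groups did not overlap in either genotype. CRIM1 changed by a log2 value of -2.79 (SE 0.44, adjusted p = 2.04e-07) in wild-type and -1.96 (SE 0.44, adjusted p = 5.61e-04) in ΔLEO1 cells, and relative to the other genes -1.90 (SE 0.24, adjusted p = 6.42e-13) and -1.05 (SE 0.24, adjusted p = 1.47e-04). All 4 calls held with each single library left out, and without library 12 the ERCC-scaled change in ΔLEO1 cells was -2.78. With the 2 lowest-numbered libraries taken as 1 that call alone was lost (adjusted p = 0.158). The interaction was 0.85 (SE 0.34, adjusted p = 0.161) relative to the other genes and was not called.

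AXL (ENSG00000167601, chr19:41219203-41261766, plus strand) is a receptor tyrosine kinase whose ligand is GAS6. It reached 111600, 94520 and 48270 ERCC-scaled counts in the wild type in 10% serum and 25840, 30100 and 23100 in 0.1% serum, with no overlap. In ΔLEO1 cells the values were 143400, 113000 and 57900 and then 39470, 19960 and 71700, which overlapped. AXL fell by 1.69 (SE 0.44, adjusted p = 0.00247) in wild-type and by 1.26 (SE 0.44, adjusted p = 0.0216) in ΔLEO1 cells, and the latter call was lost without library 4, 5, 10 or 11 (adjusted p of 0.0571 to 0.145). AXL fell by 0.65 (SE 0.20, adjusted p = 0.00499) relative to the other genes in wild-type cells, a call lost without library 8 (adjusted p = 0.0538), and was at -0.19 (SE 0.20, adjusted p = 0.491) in ΔLEO1 cells. With the 2 lowest-numbered libraries taken as 1, the wild-type calls were lost on both scales (adjusted p of 0.107 and 0.208), as was the ERCC-scaled call in ΔLEO1 cells (0.390).

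**Figure D3:**
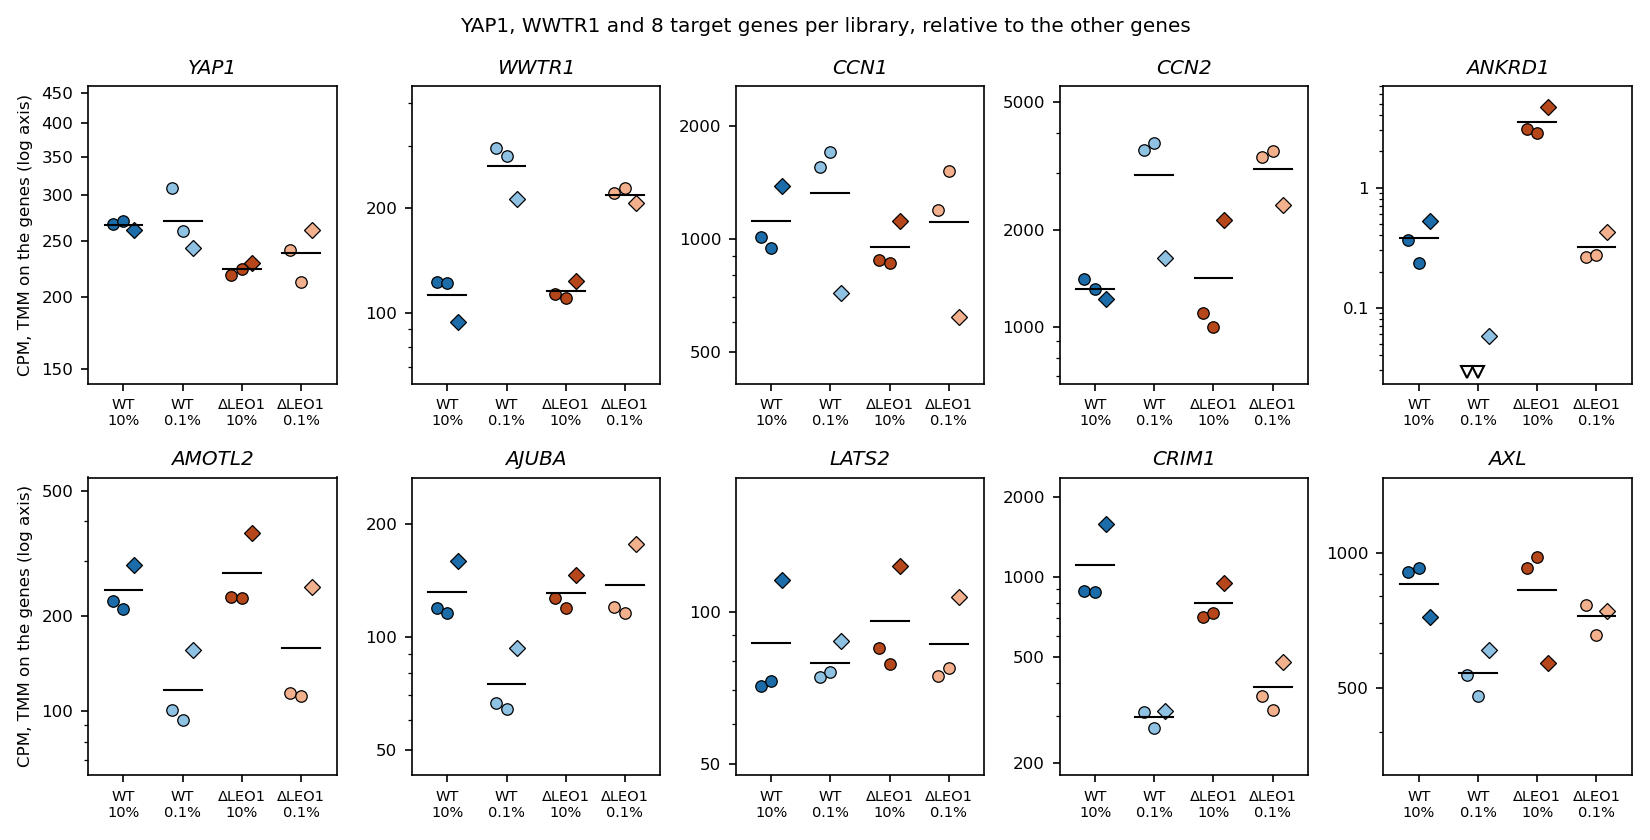
CPM after TMM on the genes (log axis) of the 10 genes in each library by group, with the group mean as a line, the highest-numbered library of each group as a diamond, and open triangles for ANKRD1 libraries with 0 counts. On this scale, though not on the ERCC scale, WWTR1 and CCN2 are higher in all libraries in 0.1% serum than in 10% serum of the same genotype, and the diamonds of AMOTL2, AJUBA, LATS2 and CRIM1 are the highest point of all 4 groups.

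The highest-numbered library of each group was above the mean of its fellows in AMOTL2, AJUBA, LATS2 and CRIM1 in all 4 groups, although for CRIM1 in wild-type cells in 0.1% serum by less (0.11) than the other libraries differed from each other (0.19). In CPM with TMM on the genes, AMOTL2 was 0.42 to 1.14 higher in log2 in library 3, 6, 9 or 12 than the mean of the other libraries of the group, AJUBA 0.24 to 0.59 higher, LATS2 0.22 to 0.69 higher and CRIM1 0.11 to 0.84 higher. CCN1 was 0.36 and 0.50 higher in these libraries in 10% serum, and 1.13 and 1.18 lower in them in 0.1% serum. CCN2 was 1.03 higher in library 6, 0.53 and 1.15 lower in libraries 12 and 9, and 0.16 lower in library 3. The other libraries of a group differed from each other by at most 0.34 in any of the 9 genes, ANKRD1 left out for its 0 counts. The labels do not say what sets these libraries apart.

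In wild-type cells, 0.1% against 10% serum, 5 of the 10 genes were called lower on the ERCC scale (ANKRD1, AMOTL2, AJUBA, CRIM1 and AXL), where 36.1% of all genes tested were. None was called higher, against 0.944% of all genes, and none had an unadjusted p under 0.05 in that direction. The quasi-likelihood test and DESeq2 gave the same counts of 5 and 0. With the highest-numbered library as a covariate 7 were lower, where YAP1 and LATS2 were added. Over the 12 alternatives to this fit, all genes called lower ranged from 548 to 9447 and all genes called higher from 41 to 2139. The median log2 fold change of the 10 genes was -1.36, beside -0.97 for all genes. With TMM on the genes the same 5 were called lower, where 16.6% of all genes were, and WWTR1 and CCN2 were called higher, where 16% were. The median of the 10 was there -0.39, beside 0.00. ANKRD1 was above 1 CPM in no wild-type library and entered these counts only through ΔLEO1 cells in 10% serum.

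In ΔLEO1 cells, 6 of the 10 genes were called lower in 0.1% serum on the ERCC scale (CCN1, ANKRD1, AMOTL2, LATS2, CRIM1 and AXL), beside 47.2% of all genes. None was called higher, beside 0.975%, or had an unadjusted p under 0.05 in that direction, and the quasi-likelihood test and DESeq2 also called 0 higher. The quasi-likelihood test called 4 lower, losing CCN1 and LATS2 (adjusted p of 0.0516 and 0.0581). The count of 6 became 8 without library 12, when YAP1 and AJUBA were called too, 3 without library 6, and 2 without library 4, 5, 10 or 11, with ANKRD1 not tested without library 4, 5 or 6. All genes called lower moved as well, from 6253 in the full fit to 11651 without library 12 and 641 without library 10. Over the 12 alternatives with other tests, scales, filters or sets of libraries they ran from 159 to 12020. Relative to the other genes ANKRD1, AMOTL2 and CRIM1 were called lower, 3 of 10 beside 12.9% of all genes (2 by the quasi-likelihood test, which lost AMOTL2 at an adjusted p of 0.0849), and WWTR1 and CCN2 higher, 2 of 10 beside 16.5%. ANKRD1 passed the filter only through the ΔLEO1 libraries in 10% serum, the higher group here, so its part in these counts is no result. The median of the 10 genes was -1.07 on the ERCC scale, beside -1.05 for all genes, and -0.04 relative to the other genes, beside 0.01.

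Between the genotypes in 10% serum, ANKRD1 was the gene of the 10 that was called, as higher in ΔLEO1 cells, on either scale. It passed the filter through that group alone, so the count of 1 is no result about the 10 genes. Of all genes 4.2% were called higher on the ERCC scale and 17.7% relative to the other genes. None of the 10 was called lower on either scale, where 4.64% and 21.8% of all genes were. No member had an unadjusted p under 0.05 for a lower level on the ERCC scale, and YAP1 and CRIM1 did relative to the other genes. YAP1 was there at -0.25 (95% interval -0.50 to -0.01, adjusted p = 0.0928), with no overlap of the libraries, and CRIM1 at -0.48 (95% interval -0.95 to -0.02, adjusted p = 0.0933), which was called without library 1, 2 or 6 and was -0.15 without library 3. For WWTR1 the interval ran from -0.27 to 0.34, for CCN1 from -0.90 to 0.45 and for CCN2 from -0.54 to 0.76.

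In 0.1% serum ANKRD1 was called higher in ΔLEO1 cells on the ERCC scale, 1 of 10 beside 3.85% of all genes, and ANKRD1 and AJUBA were called higher relative to the other genes, 2 of 10 beside 15.4%. ANKRD1 entered these counts only because it passed the filter in ΔLEO1 cells in 10% serum. None of the 10 was called lower on either scale, where 3.59% and 17.6% of all genes were, and none had an unadjusted p under 0.05 in that direction. AMOTL2 was at 0.99 on the ERCC scale (95% interval 0.12 to 1.86, adjusted p = 0.231) and at 0.44 relative to the other genes (95% interval -0.20 to 1.07, adjusted p = 0.317). AXL was at 0.73 and 0.42 (adjusted p of 0.521 and 0.0928). The quasi-likelihood test gave the same counts on both scales in both serum levels, as did DESeq2 on the ERCC scale.

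No gene of the 10 was called for the interaction of genotype and serum, beside 0.219% of all genes on the ERCC scale and 4.08% relative to the other genes. The quasi-likelihood test called 0 on both scales and DESeq2 called 0 on the ERCC scale. On the ERCC scale 0 of the 10 had an unadjusted p under 0.05, and AJUBA and CRIM1 did relative to the other genes. The serum comparisons and the genotype comparisons share libraries, so their values are not independent of each other.

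Leaving out libraries 3, 6, 9 and 12 together gave more calls relative to the other genes, with ANKRD1 not tested. WWTR1 and CCN2 were then higher by 1.25 and 1.43 in log2 with low serum in wild-type cells and by 1.01 and 1.72 in ΔLEO1 cells, and CCN1 was called higher too, at 0.73 (adjusted p = 4.31e-13) and 0.64 (adjusted p = 3.04e-10). In 10% serum CCN2 turned from 0.11 to -0.37 (adjusted p = 2.77e-06) between the genotypes, and in 0.1% serum WWTR1 was at -0.37 (adjusted p = 8.37e-08). The interaction was called for AJUBA (0.78, adjusted p = 2.59e-13), CRIM1 (0.51, adjusted p = 1.21e-04), AXL (0.43, adjusted p = 0.00239), CCN2 (0.29, adjusted p = 0.0273) and WWTR1 (-0.24, adjusted p = 0.0428). Across the 4 alternatives on this scale, this fit included, 103 to 3546 of all genes were called for the interaction. The fit with all libraries called 540. Low serum called 855 to 3609 of all genes higher in wild-type cells and 858 to 3768 in ΔLEO1 cells across these alternatives. If the lower-numbered libraries of a group were not separate cultures, the p-values without libraries 3, 6, 9 and 12 are too small.

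**Figure D4:**
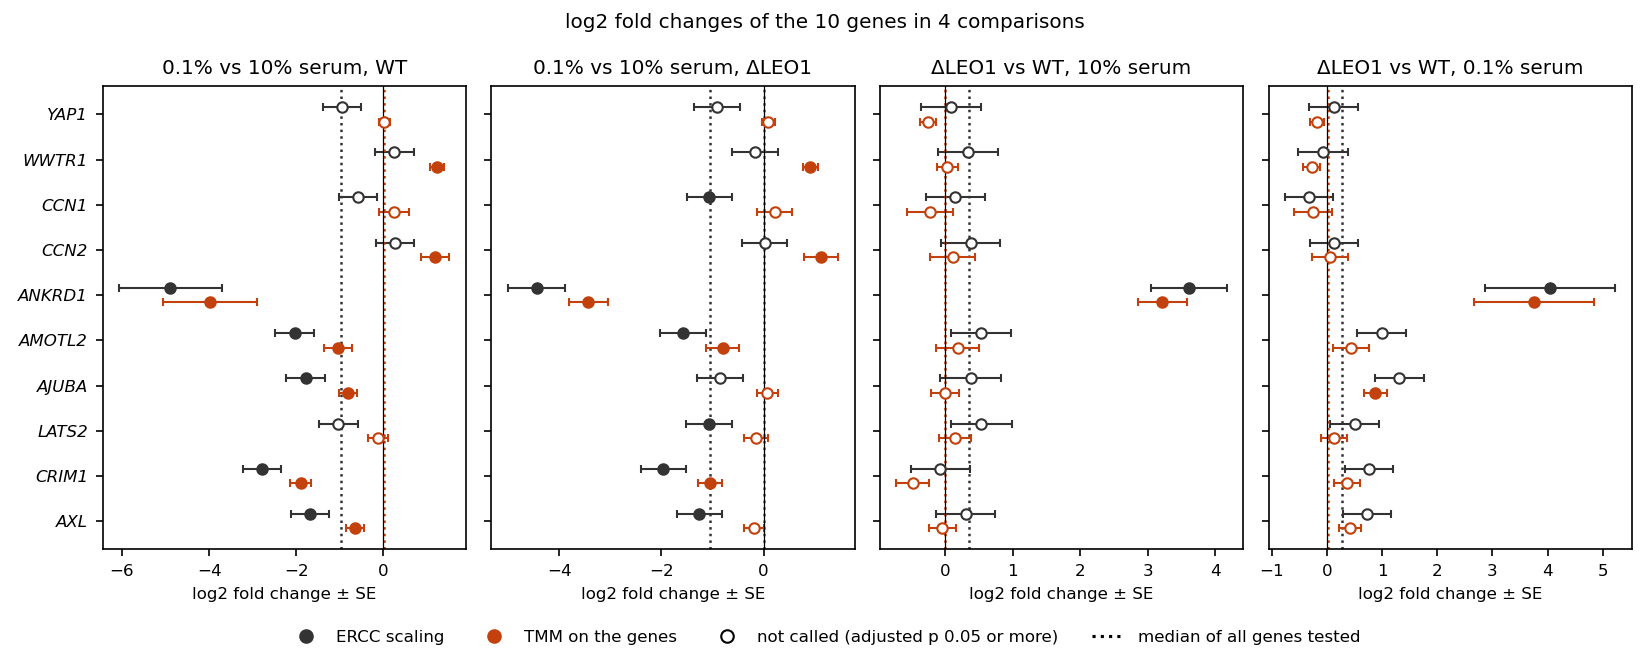
log2 fold changes with their standard errors for the 10 genes in the 4 comparisons, with ERCC scaling in black and TMM on the genes in orange. Filled points are called at an adjusted p under 0.05 and dotted lines mark the median of all genes tested. In both genotypes WWTR1 and CCN2 lie to the right of the median of their own scale with low serum and ANKRD1, AMOTL2 and CRIM1 to the left of it, and between the genotypes ANKRD1 stands alone at 3.21 to 4.05. The ANKRD1 values against wild-type cells in 0.1% serum are fitted against counts of 0, 0 and 2 and are no bounds.

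Per kilobase of annotated exon, ERCC-scaled counts ranked the genes in wild-type cells in 10% serum as CCN2, CCN1, AXL, CRIM1, YAP1, AMOTL2, AJUBA, LATS2, WWTR1 and ANKRD1. CCN2 was at 55290 ± 19510 (SD, n = 3) per kilobase, CCN1 at 42640 ± 7112, YAP1 at 4132 ± 1237, WWTR1 at 1340 ± 533 and ANKRD1 at 17.6 ± 5.26. Neighbours whose libraries overlapped were CCN2 and CCN1, AXL and CRIM1, YAP1 and AMOTL2, and LATS2 and WWTR1. CCN2, CCN1 and AXL led and ANKRD1 came last in all 4 groups. In wild-type cells in 0.1% serum CRIM1 came after YAP1, at 2054 ± 356 against 2141 ± 593 per kilobase with overlapping libraries, and WWTR1, at 1587 ± 580, came before AMOTL2, LATS2 and AJUBA.

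The genes most like each member were sought by the root mean square (RMS) difference of centred log2 CPM over the 12 libraries, among 8904 genes with at least 10 CPM on average (8905 with ANKRD1). They were ARIH2, STRN3 and KIAA0232 for YAP1 (0.063 to 0.077), GRK5, DHFR2 and JMJD1C for WWTR1 (0.118 to 0.167), FGF2, RAI14 and TPCN1 for CCN1 (0.168 to 0.206) and RASAL2, PPM1K and GNAI1 for AMOTL2 (0.192 to 0.217). For AJUBA they were C8orf58, ATOSB and SNTB1 (0.156 to 0.187), for LATS2 FOXC1, FOSL2 and KLC4 (0.108 to 0.140), for CRIM1 FADS3, IRAG1 and GYS1 (0.185 to 0.206) and for AXL ELOVL6, CCSAP and PAK1 (0.0951 to 0.158). The gene nearest to CCN2 (RMS 0.193) was ENSG00000227220, an antisense gene that shares 195 exon bases with it and had 195 to 785 counts. The strand setting of the counting is not given in the sources used here, so reads of these 2 genes cannot be told apart. SOX4 and LMCD1 followed (0.210 and 0.213). For ANKRD1 the nearest were ADGRG6, ENSG00000260604 and TGFB2 (0.576 to 0.702), at differences that are large beside those of the other genes. Among the 10 themselves, the nearest pair was WWTR1 and CCN2 (RMS 0.324), and WWTR1 ranked 17 among the 8904 genes nearest to CCN2, whereas the nearest member to YAP1 (LATS2) ranked 5114. All these points share the same 12 libraries.

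Of 14 other genes commonly listed as YAP and TAZ targets, all tested, 9 were called lower with low serum in wild-type cells on the ERCC scale, beside 36.1% of all genes, and 10 in ΔLEO1 cells, beside 47.2%. Their medians were -1.46 and -1.27, beside -0.97 and -1.05 for all genes. With TMM on the genes 7 were called lower and 2 higher in wild-type cells, beside 16.6% and 16% of all genes, with a median of -0.48 beside 0.00. In ΔLEO1 cells 5 were called lower and 1 higher on that scale, beside 12.9% and 16.5%, with a median of -0.18 beside 0.01. IGFBP3, which binds insulin-like growth factors, fell most in wild-type cells (-1.12, SE 0.27, adjusted p = 2.84e-04, relative to the other genes). TGFB2, a ligand of the transforming growth factor beta family, fell most in ΔLEO1 cells (-2.44, SE 0.36, adjusted p = 4.61e-09). RBMS3, an RNA-binding protein, rose most on that scale, by 0.77 (SE 0.14, adjusted p = 3.54e-07) and 0.93 (SE 0.14, adjusted p = 1.45e-09), while on the ERCC scale its values were -0.25 and -0.15 and were not called.

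Between the genotypes TGFB2 was the target with the largest difference. It had 4.72 to 8.22 CPM in wild-type and 71.6 to 150 CPM in ΔLEO1 cells in 10% serum, and 2.42 to 3.48 and 12.9 to 27.7 CPM in 0.1% serum. It was higher in ΔLEO1 cells by 4.37 in log2 (SE 0.46, adjusted p = 1.04e-14) in 10% serum and by 3.21 (SE 0.46, adjusted p = 1.02e-08) in 0.1% serum on the ERCC scale, and by 4.01 and 2.68 relative to the other genes. F3, which encodes tissue factor, was higher by 1.88 (SE 0.45, adjusted p = 9.02e-04) and 2.59 (SE 0.45, adjusted p = 1.74e-06) on the ERCC scale. On that scale these were the 2 genes of the 14 called in 0.1% serum, where 3.85% of all genes were called higher and 3.59% lower. IGFBP3 joined them in 10% serum (1.29, SE 0.43, adjusted p = 0.0414), where 4.2% of all genes were called higher and 4.64% lower. Relative to the other genes 4 were called higher and 1 lower in 10% serum, beside 17.7% and 21.8% of all genes, and 5 higher and 3 lower in 0.1% serum, beside 15.4% and 17.6%.

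Of the 15 kinases, scaffolds and upstream regulators of the Hippo pathway, 14 were tested, all but WWC1. With ERCC scaling 8 were called lower in 0.1% serum in wild-type cells and 9 in ΔLEO1 cells, beside 36.1% and 47.2% of all genes, with medians of -1.17 in both, beside -0.97 and -1.05. Measured against the other genes 5 were called lower and 2 higher in wild-type cells, beside 16.6% and 16% of all genes, and 3 lower and 1 higher in ΔLEO1 cells, beside 12.9% and 16.5%, all by less than 1 in log2. WWC2, a scaffold that activates LATS kinases, fell most in both genotypes, by 0.69 (SE 0.22, adjusted p = 0.00663) and 0.89 (SE 0.22, adjusted p = 3.95e-04). Its relative WWC3 fell by 0.48 (SE 0.15, adjusted p = 0.00524) in wild-type cells and rose by 0.74 (SE 0.15, adjusted p = 8.41e-06) in ΔLEO1 cells on that scale, where on the ERCC scale it was at -0.25 (adjusted p = 0.615). FRMD6, an upstream regulator, was the gene of the list with the largest rise in ΔLEO1 over wild-type cells in 10% serum (0.83, SE 0.18, adjusted p = 2.67e-05, relative to the other genes). None of the 14 was called between the genotypes on the ERCC scale in either serum (FRMD6 at 1.19 in 10% serum, adjusted p = 0.0768). Of all genes, 4.2% were called higher and 4.64% lower there in 10% serum, and 3.85% and 3.59% in 0.1% serum.

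Of the 8 TEAD and VGLL genes, the DNA-binding partners of YAP and TAZ and the cofactors that compete for them, 6 were tested. VGLL1 had 0 counts in all libraries. With low serum 3 of the 6 were called lower in wild-type and 2 in ΔLEO1 cells on the ERCC scale, beside 36.1% and 47.2% of all genes. Against the other genes 3 were called lower and 1 higher in wild-type cells, beside 16.6% and 16% of all genes, and 0 lower and 2 higher (TEAD2 and VGLL3) in ΔLEO1 cells, beside 12.9% and 16.5%. TEAD2 had mean levels of 25.6 CPM in 10% and 38.4 CPM in 0.1% serum in wild-type cells and of 21.1 and 28.1 CPM in ΔLEO1 cells, and was called higher on this scale by 0.58 (SE 0.13, adjusted p = 1.11e-04) and 0.41 (SE 0.13, adjusted p = 0.0109), while with ERCC scaling it was at -0.37 and -0.68 and was not called. TEAD4 in wild-type cells fell by 2.004 (SE 0.48, adjusted p = 9.21e-04) on the ERCC scale and fell by 1.06 (SE 0.18, adjusted p = 1.69e-07) relative to the other genes, and TEAD1 and VGLL3 were called lower there on both scales as well. In ΔLEO1 cells TEAD4 fell by 1.35 (SE 0.47, adjusted p = 0.0226) on the ERCC scale, and was at -0.34 (SE 0.18, adjusted p = 0.144) relative to the other genes. In 0.1% serum TEAD4 was higher in ΔLEO1 than in wild-type cells by 0.71 (SE 0.18, adjusted p = 6.76e-04) relative to the other genes, and at 1.03 (SE 0.48, adjusted p = 0.267) on the ERCC scale.

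Of 14 relatives of the target genes and ligands of the AXL family, 8 were tested, while AMOT, ANKRD2, CCN6 and MERTK had no library with more than 10 counts. CCN5, a relative of CCN1 and CCN2, rose in wild-type cells in low serum by 1.66 (SE 0.50, adjusted p = 0.00997) on the ERCC scale, and was higher in ΔLEO1 than in wild-type cells in 10% serum by 2.92 (SE 0.50, adjusted p = 2.03e-06). The ligands of the AXL family differed between the genotypes relative to the other genes, with GAS6 lower by 1.31 (SE 0.17, adjusted p = 4.22e-13) and PROS1 lower by 1.21 (SE 0.17, adjusted p = 2.82e-11) in ΔLEO1 cells in 10% serum. On the ERCC scale neither was called there (-0.94 and -0.86, adjusted p of 0.232 and 0.359). AXL itself was at -0.04 (SE 0.20, adjusted p = 0.886) in that comparison relative to the other genes.

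**Figure D5:**
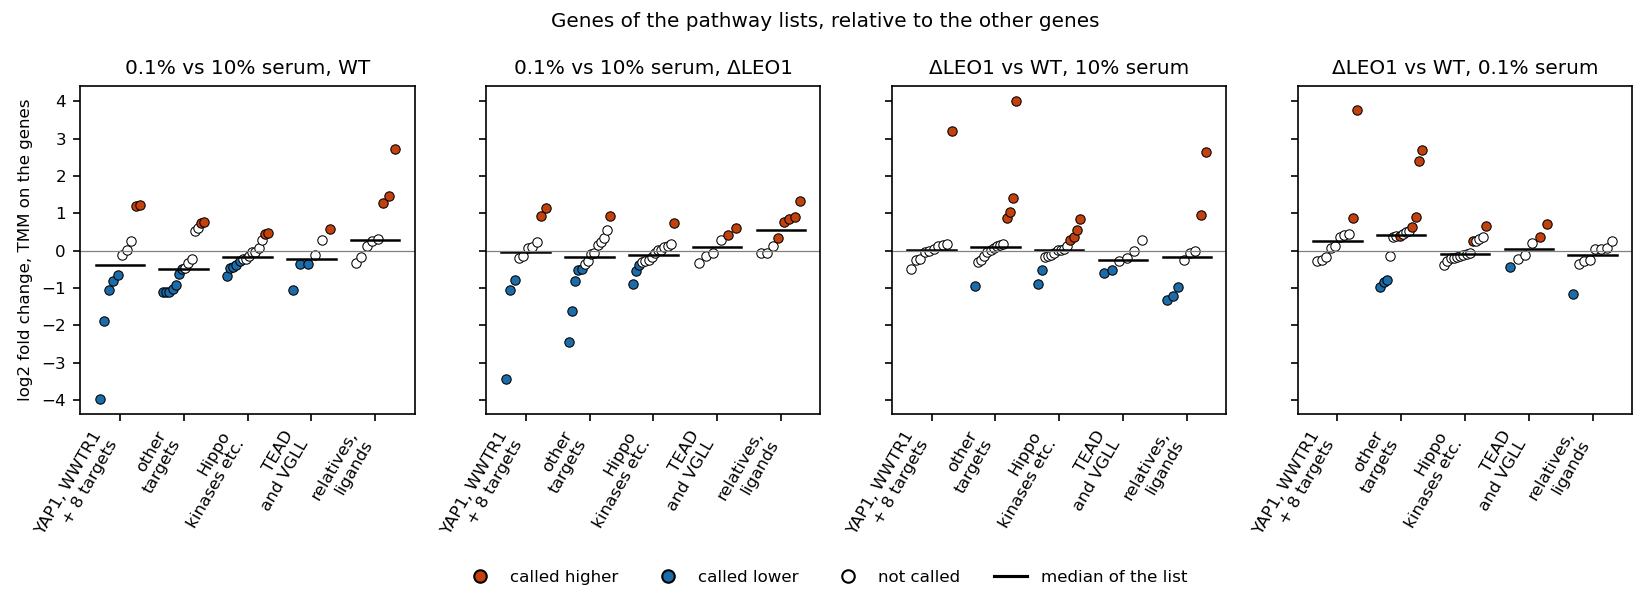
log2 fold changes relative to the other genes for each tested gene of the 10 and of 4 lists of related genes in the 4 comparisons, coloured where called, with the median of each list as a line. The medians stay between -0.48 and 0.56, and single genes such as ANKRD1 and TGFB2 reach 3.21 and 4.01 between the genotypes in 10% serum.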

How the data were processed

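Poly(A) RNA libraries were made by the authors with a stranded Illumina mRNA kit after addition of ERCC RNA. Per the labels, reads were converted with bcl2fastq 2.20.0.422, aligned to GRCh38 with STAR 2.7.10a and counted with featureCounts 1.5.1. The strand setting and annotation release are not given in the sources used here. The deposited values are raw counts per gene and library, 26240632 to 45315560 on genes per library. Groups followed the sample titles.

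Genes above 1 CPM in at least 3 libraries were tested in edgeR 4.0.16 (R 4.3.3, limma 3.58.1) with a negative binomial likelihood ratio test over all 12 libraries and 4 groups, scaled by ERCC totals with TMM factors on the ERCC counts, and again with TMM on the genes. Benjamini-Hochberg adjusted p under 0.05 was called. DESeq2 1.42.0, the quasi-likelihood test, other filters and left-out libraries were alternatives. A run on simulated counts for the wild-type serum comparison with 13236 genes used a set dispersion of 0.02. There 200 of 200 changed genes were recovered with 11 false calls on the ERCC scale. Recovery of fold changes like those of the 10 genes, at the spread between these libraries, was not tested. Named are the 10 genes, LEO1, called genes of the related lists (described by the largest rise and fall in each comparison), listed genes with no library above 10 counts, and the 3 genes most alike to each of the 10. Members and lists were chosen with earlier results of these data known. Figures were drawn with matplotlib 3.10.9. Intervals cover the fitted spread between these libraries.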

Additional observations from a re-analysis of the deposited data

Results flagged for a closer look

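The related genes tested were 14 other targets, 14 Hippo genes, 6 TEAD and VGLL genes and 8 relatives and ligands. Of these, 4 had serum responses that differed between the genotypes by the interaction term relative to the other genes. The test was edgeR's likelihood ratio test, Benjamini-Hochberg adjusted over all genes, and it called 4.08% of all genes. The 4 genes are named because this test called them. WWC3, a scaffold of the Hippo pathway, had an interaction of 1.21 in log2 (adjusted p = 1.20e-06), with mean CPM of 68.8 in 10% and 49.4 in 0.1% serum in wild-type cells and of 36.7 and 61.1 in ΔLEO1 cells. VGLL3, a TEAD cofactor, had 0.95 (adjusted p = 1.58e-07), with means of 297.5 and 233.7 in wild-type and 197.9 and 300.3 in ΔLEO1 cells. GAS6, the ligand of AXL, had 1.02 (adjusted p = 0.00149), with means of 642.8 and 569.6 in wild-type and 258.8 and 465.5 in ΔLEO1 cells. CCN5 had -2.59 (adjusted p = 0.00337), with means of 1.55 and 10.2 in wild-type and 9.64 and 10.5 in ΔLEO1 cells. Its libraries ran from 6.61 to 17.15 CPM in wild-type cells in 0.1% serum and from 5.97 to 16.8 in ΔLEO1 cells in 10% serum. In the latter group GAS6 ran from 185 to 297 CPM. These 4 interactions were not refitted with another test or with libraries left out. None of the related genes was called for the interaction on the ERCC scale, where 0.219% of all genes were.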

How the results depend on the processing

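No paired analysis was possible because the libraries carry running numbers from 1 to 12 and no number is shared between groups. A fit had 1 term for libraries 3 and 6 and another for 9 and 12, which pair no samples. Its serum changes are those at the level of the other libraries. On the ERCC scale it called 7 lower with low serum in each genotype. YAP1 and LATS2 were added in wild-type cells. In ΔLEO1 cells YAP1 and AJUBA were added and CCN1 was lost. Alternatives to the ERCC-scaled fit numbered 12, some of them scaled on the genes. Over these, low serum called 548 to 9447 of all genes lower in wild-type and 159 to 12020 in ΔLEO1 cells. Higher were 41 to 2139 and 39 to 2190. Between the genotypes 238 to 2418 were higher in 10% serum and 296 to 2067 in 0.1% serum. The share of all genes in most single alternatives is not given here. Counts below are of the 10 genes unless all genes are named. CCN1 and WWTR1 values are log2 changes with low serum in ΔLEO1 cells. With the scale set on the genes by TMM or by DESeq2 size factors in place of ERCC, CCN1 turned to 0.22 by both and WWTR1 to 0.92 by both, and low serum called 2 higher in wild-type cells, 2 higher and 3 lower in ΔLEO1 cells, and 2 were higher in ΔLEO1 cells in 0.1% serum. At an adjusted p under 0.01, or with the 6 libraries compared alone, 3 were lower with low serum in ΔLEO1 cells. Between the genotypes in 0.1% serum, filterByExpr called 2 higher and the 6 libraries alone 0, on the ERCC scale. Without libraries 3, 6, 9 and 12, where ANKRD1 was not tested, 0 were higher between the genotypes on the ERCC scale in either serum. Relative to the other genes, 3 were then lower in 10% serum, 4 higher and 3 lower in 0.1% serum, and 5 were called for the interaction, while CCN2 turned to -0.37 between the genotypes in 10% serum and to 0.29 for the interaction. Over the 4 alternatives on that scale, this fit included, 1650 to 4206 of all genes were lower in 10% serum. In 0.1% serum 765 to 4015 of all genes were higher and 1217 to 3848 lower, and 103 to 3546 were called for the interaction. After the 2 libraries with the lowest numbers in each group were summed, which leaves fewer samples and ANKRD1 untested, low serum called 2 lower in wild-type and 0 in ΔLEO1 cells on the ERCC scale, and 1 lower and 1 higher in each genotype relative to the other genes. Between the genotypes that sum called 0 higher in 10% serum on both scales, and in 0.1% serum 0 higher on the ERCC scale and 1 relative to the other genes.

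With each library left out in turn, 2 to 8 were lower with low serum in ΔLEO1 cells on the ERCC scale and 1 to 3 relative to the other genes, where 1 to 2 were higher. In wild-type cells 4 to 7 were lower on the ERCC scale and 3 to 5 relative to the other genes. Over the same fits on the ERCC scale, 641 to 11651 of all genes were lower in ΔLEO1 cells and 1137 to 8598 in wild-type cells. Between the genotypes 0 to 1 of the 10 were higher in 10% serum on both scales, and 0 to 4 on the ERCC scale and 1 to 2 relative to the other genes in 0.1% serum. Relative to the other genes, 0 to 1 were lower in either serum and 0 to 1 were called for the interaction. The cause of these changes was not tested, except where ANKRD1 left the test.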
